A study of Mus musculus with 8 samples.

Results

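The ATF4 programme and the synthesis of serine and asparagine were represented by 10 genes, 10 of the 22946 rows of the count table, and followed across mouse livers: Asns, Atf4, Atf5, Ddit3, Trib3, Chac1, Sesn2, Psat1, Phgdh and Psph. The group was chosen for Asns, which had been selected on its lower counts on high fat diet in the wild-type livers of these same data, so the Asns values of those livers are described and not tested. Each of the 10 symbols has a row of its own, and none is joined with another gene. The study sequenced RNA from livers of C57 black mice that were wild-type or MLL4 het and were put on normal chow or high fat diet (HFD) at 8 weeks of age for 8 weeks, to find genes that HFD alters in wild-type livers and alters less in MLL4 het livers. MLL4, also called KMT2D, is an enzyme that methylates histone H3 at enhancers. The 4 groups are wild-type on chow (libraries 1 and 2), wild-type on HFD (5 and 6), MLL4 het on chow (3 and 4) and MLL4 het on HFD (7 and 8), with 2 libraries each. The labels do not say how the allele was made, in which cells it is carried, the sex of the mice or whether each library is 1 animal. The p-values below therefore rest on the variation from library to library, part or all of which may be technical.

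ATF4 is a transcription factor whose mRNA is always present but is mostly translated when kinases phosphorylate the initiation factor eIF2 alpha, as happens when amino acids run short or unfolded protein collects in the endoplasmic reticulum (ER). It then switches on genes that make, import and spare amino acids, together with genes such as Ddit3, Trib3 and Chac1 that shape how a cell ends or survives the stress. The liver takes up and makes most non-essential amino acids, and the pathway is one of its routes for sensing dietary protein. ATF4 binds DNA at the C/EBP-ATF response element, whose core can be written TGATGNAA.

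The letters TGATGNAA were searched on both strands in RefSeq promoter windows of 300 bases, 250 before and 50 after each start, on build GRCm38.p6. All 10 genes were in the table, and 3 of them, Asns, Trib3 and Chac1, held a match. A match was held by 4.51% of all 27025 genes listed and by 3.97% of all 32851 windows. The stretches below are shown because they let the 3 genes be compared at the element for which the group is best known, with the match in capitals and each stretch read on the strand that carries it.
Asns: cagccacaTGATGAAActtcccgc
Trib3: cgcccggcTGATGTAAacctgagc
Chac1: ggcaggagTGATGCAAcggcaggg
The Asns stretch lies at chr6:7693217-7693240 on the strand of the gene, and its match ends 15 bases before the start. The Trib3 stretch lies at chr2:152344031-152344054 on the opposite strand to the gene, and its match lies within the 50 bases after the start; those bases were not found in a GENCODE M21 transcript of Trib3. The Chac1 stretch lies at chr2:119351041-119351064, also on the opposite strand to the gene, with 185 bases between match and start. The 250 bases before the Asns start (chr6:7693210-7693459, minus strand) read as follows, with the same match in capitals near the right-hand end.
Asns upstream: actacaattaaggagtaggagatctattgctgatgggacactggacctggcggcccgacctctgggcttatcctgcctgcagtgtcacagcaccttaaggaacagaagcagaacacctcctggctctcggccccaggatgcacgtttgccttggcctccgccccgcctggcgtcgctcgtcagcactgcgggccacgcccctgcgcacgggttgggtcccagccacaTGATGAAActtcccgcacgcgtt
A match is a description of the sequence and not a measured binding site.

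Levels are given as CPM, the usual counts-per-million scale, which puts the counts of a gene over the total of its library after scaling between libraries. The libraries held 14142884 to 18928676 counts, so that 3 counts, used here as the floor of detection, correspond to 0.161 to 0.213 CPM. Kmt2d, listed under its older symbol Mll2, was not lower in the libraries labelled het: it stood at 61.2 to 69.6 CPM in the 4 wild-type libraries and 60 to 75.4 CPM in the 4 het libraries, with a log2 difference of 0.06 ± 0.09 (SE) between genotypes averaged over diets (edgeR adjusted p = 0.747). Which part of the transcript the allele removes is not given in the labels, so the row does not check the genotype, and "het" below means the library's label. Over all 12593 rows that passed the filter on low counts, the median log2 change lay within 0.02 of 0 in both diet comparisons.

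Asns encodes asparagine synthetase, which makes asparagine from aspartate with glutamine as the nitrogen donor. It was highest in wild-type livers on chow, at 5.73 and 7.54 CPM (91 and 130 counts). On HFD the wild-type libraries had 0.577 and 0.383 CPM (10 and 7 counts). The het libraries had 1.84 and 1.56 CPM on chow (26 and 23 counts) and 0.429 and 0.498 CPM on HFD (8 and 7 counts). All 4 HFD libraries were thus below all 4 chow libraries, the wild-type chow libraries were above the het chow libraries, and the HFD libraries of the 2 genotypes overlapped. The group means ran from 6.64 ± 1.28 CPM (SD, n = 2) in wild-type chow through 1.70 ± 0.196 in het chow to 0.480 ± 0.137 for wild-type livers on HFD and 0.464 ± 0.0485 for het livers on HFD.

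**Figure D1:**
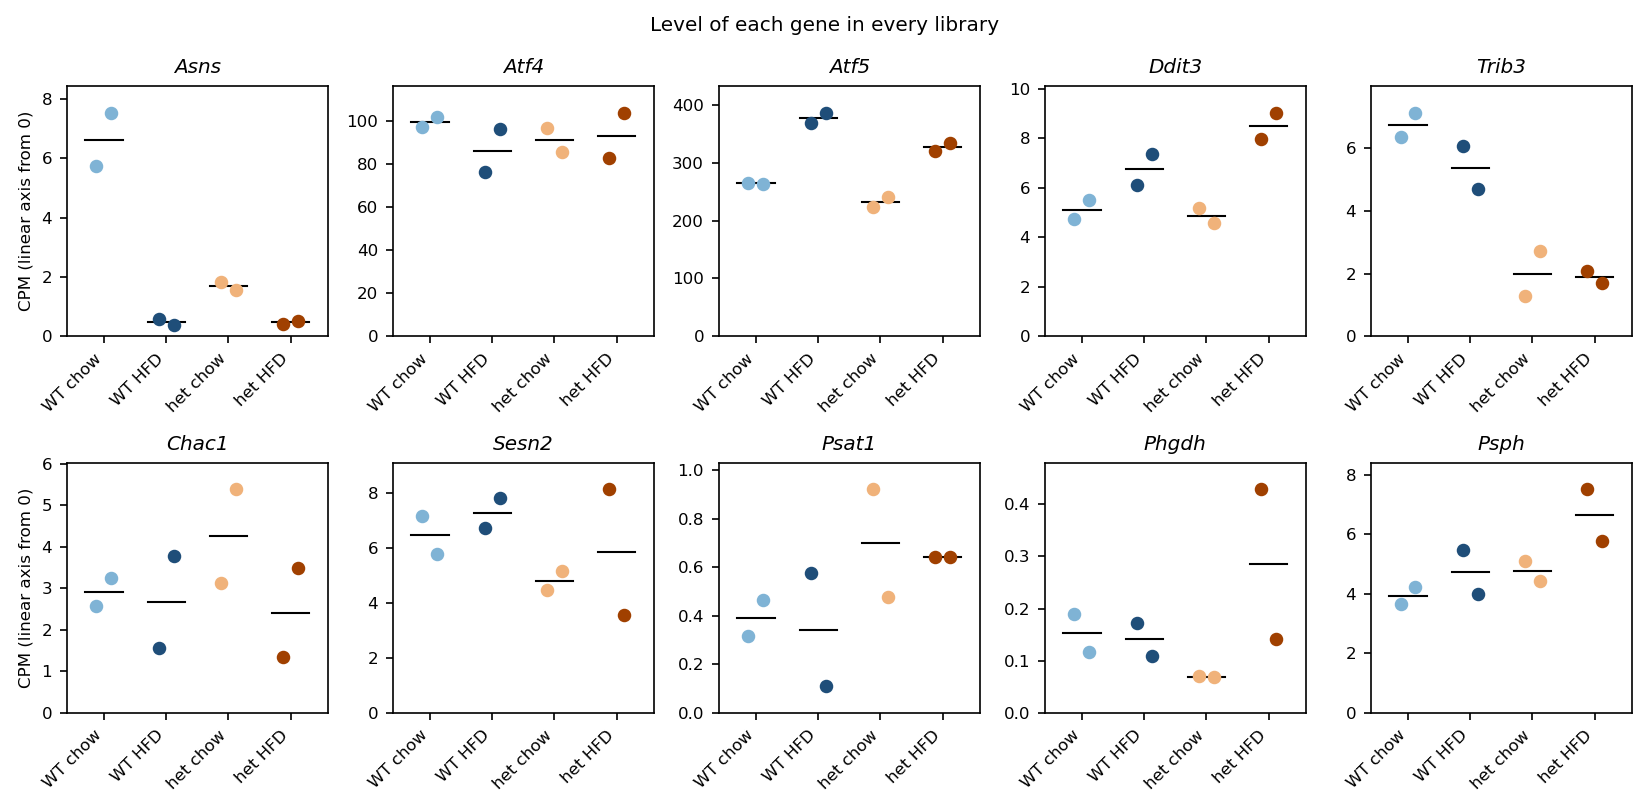
CPM of the 10 genes in each library, 1 panel per gene, with a linear axis from 0; points are libraries and bars are group means (2 libraries per group). Asns stands at 5.73 and 7.54 CPM in wild-type chow and at 0.577 CPM or less in the 4 HFD libraries, Atf5 is at 320 CPM or more in the 4 HFD libraries and 266 CPM or less in the 4 chow libraries, and Trib3 is at 2.72 CPM or less in the 4 het libraries.

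In the wild-type livers, which chose the gene, the log2 difference of Asns between HFD and chow was -3.78 ± 0.29 (SE, 95% interval -4.44 to -3.12), a ratio of 0.0729. In the het livers, which the choice did not use, Asns fell by 1.87 ± 0.36 on the log2 scale (interval -2.69 to -1.05, ratio 0.273, edgeR quasi-likelihood adjusted p = 0.0318), and it was lower in both HFD libraries than in both chow libraries. With 7 to 10 counts per HFD library, Asns passed the filter on low counts only through its chow libraries, where it is high. Its adjusted p in het livers is therefore a description and not support for a fall. The call also shares its estimate of spread with the wild-type libraries. It was lost when only the 4 het libraries were fitted and when any of libraries 1, 2, 3, 4, 7 or 8 was left out, with log2 values from -1.99 to -1.75 and adjusted p up to 0.145. The difference in the diet effect between genotypes was 1.90 ± 0.52 (interval 0.72 to 3.09), given without a test because the wild-type diet effect inside it chose the gene. Between genotypes, Asns on chow differed by -1.96 ± 0.24 (interval -2.51 to -1.41, ratio 0.257) and on HFD by -0.06 ± 0.44 (interval -1.06 to 0.94), again as descriptions, since both use the wild-type libraries. In bulk liver RNA, fewer cells of a type and less RNA per cell cannot be told apart.

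The pancreas is known for high Asns, so acinar markers were read beside it. Of 8 such markers (Prss1, Pnlip, Cpa1, Cela1, Cela2a, Ctrb1, Cel and Amy2a5), 6 were at 0 in every library, and the sum of the list lay at 24.6 and 28.9 CPM in wild-type chow and between 16 and 21.8 CPM in the other 6 libraries. Nearly all of it was Cela1, at 15.8 to 28.3 CPM over the 8 libraries, while Cela2a never passed 10 counts.

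The transcription factors came next. Atf4 mRNA varied far less than Asns mRNA. It stood at 97.6 and 102 CPM on chow and 76.3 and 96.5 on HFD in wild-type livers, and 97 and 85.9 on chow and 82.8 and 104 on HFD in het livers, and every pair of groups overlapped except the 2 wild-type groups and the 2 chow groups. The log2 change on HFD was -0.21 ± 0.14 in wild-type livers (interval -0.53 to 0.11, edgeR adjusted p = 0.483) and 0.03 ± 0.14 in het livers (interval -0.29 to 0.36, adjusted p = 0.939). Averaged over genotypes it was -0.09 ± 0.1, with an interval of -0.32 to 0.14 (adjusted p = 0.639). Because ATF4 is controlled mostly at translation, these mRNA levels do not measure the protein.

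Atf5 encodes a related factor that is abundant in liver and is also translated under eIF2 alpha phosphorylation. Its CPM were 266 and 264 in wild-type chow and 370 and 387 in wild-type HFD. The het libraries had 224 and 241 on chow against 320 and 335 on HFD. The 4 HFD libraries were all above the 4 chow libraries. Atf5 rose on HFD by 0.51 ± 0.08 in wild-type livers (interval 0.33 to 0.70, edgeR adjusted p = 0.0116), by 0.49 ± 0.08 in het livers (interval 0.31 to 0.68, adjusted p = 0.0204) and by 0.50 ± 0.06 averaged over genotypes (interval 0.37 to 0.63, adjusted p = 0.00131). The change averaged over genotypes passed under all 14 alternatives tried (0.48 to 0.52, adjusted p up to 0.0129). The wild-type call was lost without library 1, 2, 5 or 6 (adjusted p up to 0.127), and the het call without 1, 2, 3, 7 or 8 or when only the het libraries were fitted (up to 0.105). Between genotypes Atf5 was -0.20 ± 0.06 averaged over diets, which did not pass (adjusted p = 0.0971).

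Ddit3 encodes CHOP, a factor made late in a lasting stress response. It read 4.73 and 5.51 CPM on chow and 6.12 and 7.38 on HFD in wild-type livers, and 5.17 and 4.56 on chow and 7.99 and 9.03 on HFD in het livers. The 4 HFD libraries again lay above the 4 chow libraries, and the 2 genotypes did not overlap on HFD. Ddit3 rose by 0.80 ± 0.17 in het livers (interval 0.41 to 1.20, edgeR adjusted p = 0.046) and by 0.60 ± 0.12 averaged over genotypes (interval 0.32 to 0.88, adjusted p = 0.0168), while the wild-type value of 0.40 ± 0.17 did not pass (interval 0.01 to 0.79, adjusted p = 0.249). The difference between the 2 diet effects was 0.40 ± 0.24 (interval -0.15 to 0.96, adjusted p = 0.729), so a larger effect in het livers is not shown. The het call was lost with DESeq2, with only the het libraries in the fit and without any 1 of the 8 libraries (adjusted p up to 0.144). The averaged call was lost without library 1 or 6 (up to 0.0845).

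Trib3, Chac1 and Sesn2 are targets that act back on the stress response or on growth. Trib3 encodes a pseudokinase that restrains ATF4 and the kinase AKT. Its libraries divided by genotype. Trib3 stood at 6.36 and 7.13 CPM in wild-type chow and 6.06 and 4.7 in wild-type HFD, against 1.28 and 2.72 in het chow and 2.09 and 1.71 in het HFD (86 to 123 counts per wild-type library and 18 to 40 per het library). The 4 het libraries were all below the 4 wild-type libraries. Averaged over diets, Trib3 was lower in het livers by a log2 value of -1.61 ± 0.21 (interval -2.10 to -1.13, ratio 0.327, edgeR adjusted p = 0.015), and the values on each diet alone were -1.75 ± 0.30 on chow (adjusted p = 0.0526) and -1.48 ± 0.30 on HFD (adjusted p = 0.0753). The averaged call was lost without library 2 (adjusted p = 0.0734), and over all alternatives the value stayed between -1.94 and -1.40. The chow value passed with DESeq2, with upper-quartile scaling, with no filter on low counts and without library 4, 7 or 8, and the HFD value with DESeq2, with no filter and without library 3 or 4. Under the other alternatives, 9 of 15 on chow and 11 of 15 on HFD, these values did not pass. Over all 15 the log2 value ran from -2.41 to -1.31 on chow and from -1.66 to -1.29 on HFD. On HFD against chow, Trib3 was -0.20 ± 0.22 averaged over genotypes (interval -0.69 to 0.30, adjusted p = 0.63).

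Chac1 encodes an enzyme that breaks down glutathione. Its libraries spread widely inside each group, at 2.58 and 3.25 CPM on chow and 1.56 and 3.77 on HFD in wild-type livers, and 3.12 and 5.38 on chow and 1.34 and 3.48 on HFD in het livers. Each diet comparison overlapped, and the largest of the fitted diet values, -0.87 ± 0.51 in het livers, had an interval of -2.02 to 0.28 (edgeR adjusted p = 0.421). Sesn2, a brake on the growth kinase mTORC1 that binds leucine, read 7.18 and 5.8 CPM on chow and 6.75 and 7.82 on HFD in wild-type livers, and 4.46 and 5.17 on chow and 8.15 and 3.56 on HFD in het livers. The 2 het HFD libraries held both its highest and its lowest value. No comparison of Sesn2 passed, with adjusted p of 0.426 or more.

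Phgdh, Psat1 and Psph catalyse the 3 steps from 3-phosphoglycerate to serine. The first steps were close to undetected. Phgdh was counted 3 and 2 times in wild-type livers under either diet, once in each het library on chow, and 8 and 2 times in het livers on HFD, 22 counts in all. It was the only one of the 10 that did not pass the filter on low counts. No fold is given for it. Psat1 was counted 5 and 8 times in wild-type chow, 10 and 2 times in wild-type HFD, 13 and 7 times in het chow, and 12 and 9 times in het HFD. These are 0.109 to 0.921 CPM, with wild-type HFD library 6 under the floor. Its largest fitted value was 0.91 ± 0.64 between genotypes on HFD (interval -0.55 to 2.37, edgeR adjusted p = 0.585). Psat1 passed the filter on low counts only through het libraries, where it is highest. Its values between genotypes are therefore descriptions and not tests.

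Psph, the phosphatase of the last step, was measured better, at 3.65 and 4.23 CPM on chow and 5.48 and 3.99 on HFD in wild-type livers, and 5.1 and 4.42 on chow and 7.51 and 5.76 on HFD in het livers. The het HFD libraries were above the other 6. Psph was 0.37 ± 0.16 on HFD against chow (interval 0.02 to 0.73, edgeR adjusted p = 0.174) and 0.38 ± 0.16 in het against wild-type livers (interval 0.03 to 0.74, adjusted p = 0.208), each averaged over the other factor, and neither passed. In CPM per kilobase of exon, which allows genes to be compared, the wild-type chow levels were 133 for Atf5, 57.9 for Atf4, 5.75 for Ddit3, 3.33 for Trib3, 3.07 for Asns, 2.27 for Psph, 1.87 for Sesn2, 1.78 for Chac1, 0.133 for Psat1 and 0.0806 for Phgdh. Asns per kilobase was 0.222 in wild-type HFD, 0.786 in het chow and 0.214 in het HFD.

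**Figure D2:**
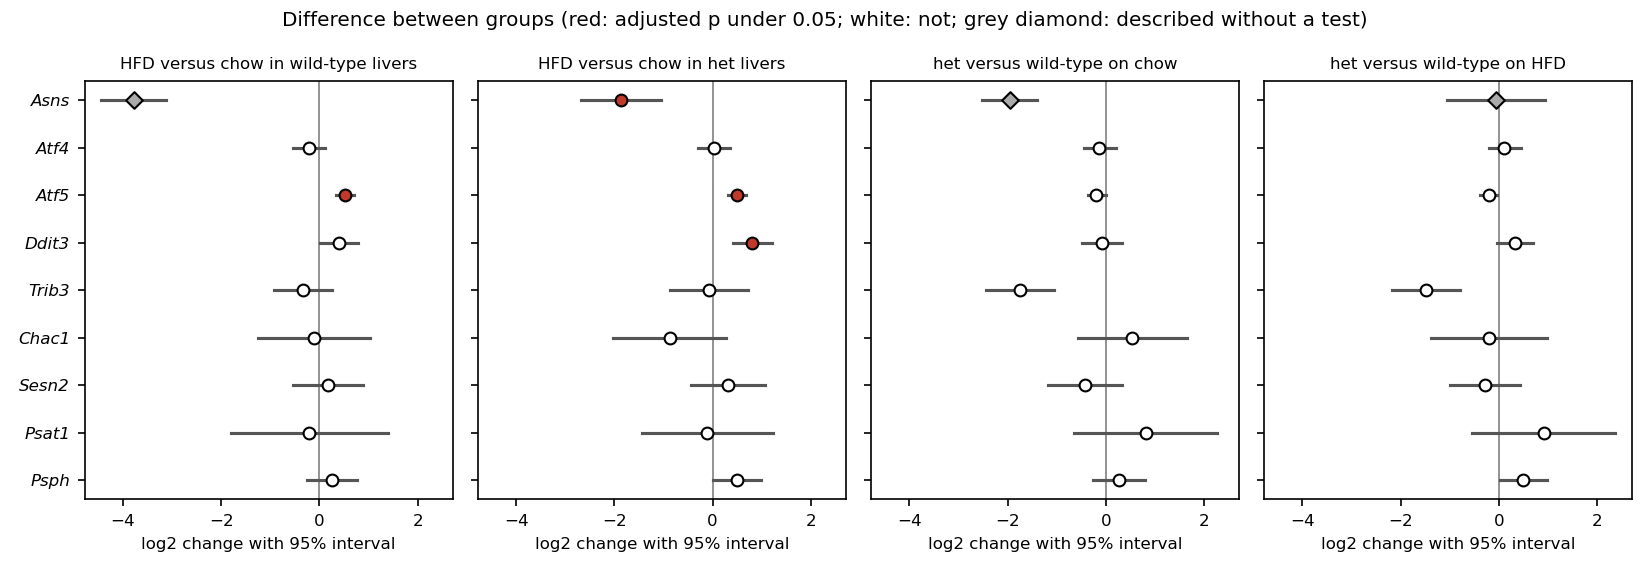
Log2 change with 95% interval for the 9 genes that passed the filter, in 4 comparisons; red points passed an edgeR adjusted p of 0.05, white points did not, and grey diamonds are Asns values that share the libraries that chose it. On HFD Atf5 is red in both genotypes (0.51 and 0.49), Ddit3 and Asns in het livers (0.80 and -1.87), and no tested point is red between genotypes. Asns passed the filter only through its chow libraries, and Psat1 only through het libraries.

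Read over all 9 genes that passed the filter, the calls were few and mixed in direction. In wild-type livers 2 passed on HFD, Atf5 higher and Asns lower, where 4.59% of all rows tested were called; Asns chose the group there, so nothing is read from that count. In het livers 3 passed, Atf5 and Ddit3 higher and Asns lower, against 3.02% of all rows. Asns had passed the filter on low counts only through its chow libraries, so nothing is read from that count either. Between genotypes 1 passed on chow (0.516% of all rows), which was Asns and shares the wild-type chow libraries that chose it. On HFD 0 passed between genotypes by edgeR (0.445% of all rows), with 3 at an unadjusted p under 0.05 and 1, Trib3, called by DESeq2. Averaged over genotypes 3 passed between diets, Atf5, Ddit3 and Asns, against 10.4% of rows, where Asns again includes the libraries that chose it and nothing is read from the count. Averaged over diets 1 passed between genotypes, Trib3, against 3.24% of rows. No row of the table was called for a difference in diet effect between genotypes by edgeR (0%), although 900 rows had an unadjusted p under 0.05 and DESeq2 called 29. DESeq2 gave an adjusted p for that difference to Atf4 and Atf5 only among the 9, and called neither. The median log2 change of the 9 genes on HFD was -0.12 in wild-type and 0.03 in het livers, beside 0.02 and -0.01 over all rows tested. Both medians include Asns, which chose the group in wild-type livers and passed the filter only through its chow libraries. Nothing is read from the medians. The diet and genotype comparisons share libraries, and their values are given side by side only. Libraries of the 2 diets did not overlap for 5 of the 9 genes in wild-type livers (55.9% of all rows tested) and 4 in het livers (44.7%), and over 4 against 4 libraries for 3 (13.1%), Atf5, Ddit3 and Asns. Each of these counts includes Asns, which was chosen on its difference in the wild-type livers and passed the filter only through its chow libraries. Nothing is read from them. Libraries of the 2 genotypes did not overlap for 7 of the 9 on chow (45.9%) and 5 on HFD (47.1%), and over 4 against 4 libraries for 1, Trib3 (8.35%). The chow count includes Asns, which shares the wild-type chow libraries that chose it. The chow and HFD counts both include Psat1, which passed the filter only through het libraries. Nothing is read from either of them.

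Over the 8 libraries, the log2 CPM of Asns had a Pearson r of 0.41 with Atf4, -0.71 with Atf5, -0.74 with Ddit3 and 0.42 with Trib3. It was 0.26 with Chac1, -0.06 with Sesn2, 0.04 with Psat1 and -0.61 with Psph. These points share the diet and genotype groups, and the values describe these libraries. Among 11585 rows with a mean of at least 1 CPM, the 5 whose pattern was most like that of Asns were Fech (r = 0.995), Bnip3l (0.974), Gsta2 (0.969), Obfc2a (0.968) and Acsm5 (0.959), none of which is among the 10. Gsta2, a glutathione transferase, averaged 33.6 CPM on chow and 7.34 on HFD in wild-type livers, and 18.5 and 5.79 in het livers. Fech, the last enzyme of haem synthesis, had the same order with a much smaller range, 174 and 146.1 CPM in wild-type livers and 160.3 and 146 in het livers.

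**Figure D3:**
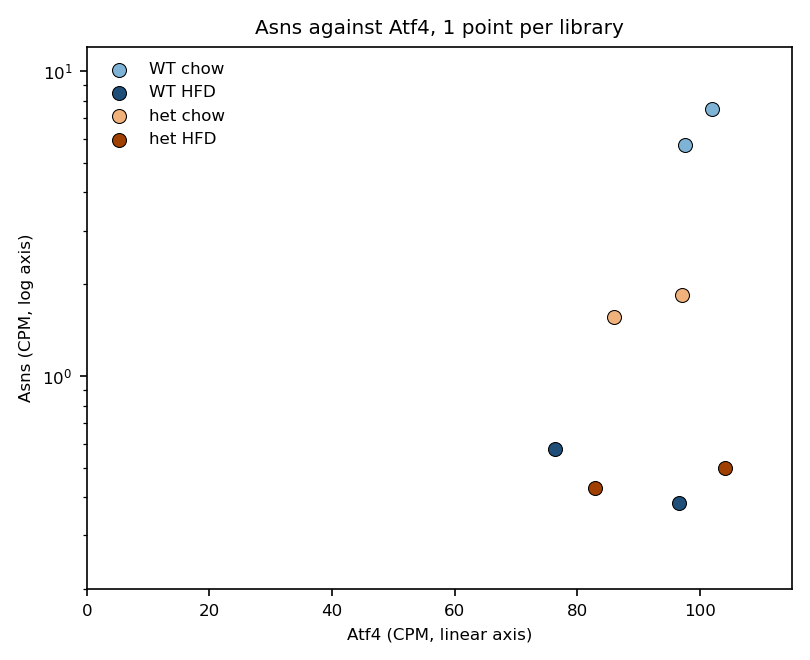
Asns (CPM, log axis) against Atf4 (CPM, linear axis), 1 point per library, coloured by group. Atf4 stays between 76.3 and 104 CPM in all 8 libraries while Asns runs from 0.383 to 7.54 CPM, and the 4 HFD libraries lie at the bottom over the whole range of Atf4.

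Other genes of the pathway were read from 6 lists. Of the 7 genes for the eIF2 alpha kinases, eIF2 alpha itself and its phosphatase subunits, 0 passed in any comparison with edgeR or DESeq2, with at most 1 at an unadjusted p under 0.05, and the median log2 change on HFD was 0.19 in wild-type and 0.06 in het livers. The most abundant of them, Ppp1r15b, a subunit that brings the phosphatase to eIF2 alpha, read 94.6 to 118 CPM over the 8 libraries (0.15 ± 0.08 on HFD averaged over genotypes, edgeR adjusted p = 0.266). Eif2ak1, the haem-sensing kinase, read 41 to 46.2 CPM.

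Of 28 other genes known as ATF4 targets, 24 passed the filter. On HFD in wild-type livers 2 rose and 1 fell, in het livers 0 rose and 1 fell, and averaged over genotypes 4 rose and 3 fell, beside 10.4% of all rows (median 0.05 in wild-type and 0.01 in het livers). Averaged over genotypes 1 rose and 1 fell without library 1, 5 or 6, 2 rose without library 2 or 4, and 1 fell with DESeq2 and without library 7 or 8. Fgf21, a fasting and stress hormone of the liver, had 3 and 2 counts in wild-type chow against 29 and 21 in wild-type HFD. In het livers it had 3 and 8 counts on chow against 29 and 15 on HFD. It rose by 3.16 ± 0.55 in wild-type livers (adjusted p = 0.0168, lost without library 1, 2 or 5 with adjusted p up to 0.139) and by 2.47 ± 0.37 averaged over genotypes (adjusted p = 0.00455). These folds rest on few chow counts, and Fgf21 passed the filter on low counts only through its HFD libraries, where it is high. Its adjusted p-values are therefore descriptions and not support for a rise, and the counts of risen genes above include it. Slc1a4, a carrier of alanine, serine and cysteine, rose in wild-type livers from 5.48 and 5.28 CPM to 11.1 in both libraries, by 1.04 ± 0.23 (adjusted p = 0.0371, lost without library 1, 2, 5 or 6, up to 0.234).

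Cth, the enzyme that makes cysteine from cystathionine, went the other way. It read 591 and 667 CPM in wild-type chow and 274 and 333 in wild-type HFD. The het libraries read 437 and 468 on chow and 246 and 241 on HFD. It fell by 1.05 ± 0.11 in wild-type livers (edgeR adjusted p = 0.0024) and by 0.89 ± 0.11 in het livers (adjusted p = 0.00828), and each of these calls passed under all 15 alternatives. Averaged over diets, Cth was also lower in het livers, at -0.40 ± 0.08 (adjusted p = 0.037, lost without library 1, 2, 3, 6, 7 or 8, up to 0.157). Averaged over genotypes, the amino acid carrier Slc7a5 fell by 0.81 ± 0.18 (adjusted p = 0.0227) and the alanine transaminase Gpt2 rose by 0.56 ± 0.13 (adjusted p = 0.0284). The Slc7a5 call was lost with DESeq2 and without library 1, 3, 5, 6, 7 or 8 (up to 0.0952), and the Gpt2 call without 1, 4, 5, 6 or 7 (up to 0.104).

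Of the 20 cytosolic aminoacyl-tRNA synthetases, many of them ATF4 targets, 0 passed in either genotype on HFD with edgeR or DESeq2 (2 in each had an unadjusted p under 0.05), with medians of 0.07 and -0.03. Aars, the alanine enzyme, is counted in a row joined with Exosc6, which read 214 to 230 CPM over the 8 libraries. Averaged over genotypes 1 rose, the tryptophan enzyme Wars, by 0.42 ± 0.08 (edgeR adjusted p = 0.0144, lost without library 1 or 6, up to 0.0774). Nars, which charges asparagine onto its tRNA and was picked out after its values were seen, read 101 to 127 CPM (-0.03 ± 0.08 on HFD averaged over genotypes, adjusted p = 0.865).

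Of 23 enzymes of serine, glycine and one-carbon metabolism, 21 passed the filter. On HFD 1 fell in wild-type livers, Sdsl, a serine dehydratase-like enzyme, by 0.80 ± 0.18 from 11 and 8.7 CPM to 5.37 and 5.91 (edgeR adjusted p = 0.0391, lost without library 1, 2, 5 or 6, up to 0.281), and 0 passed in het livers with edgeR (5 at an unadjusted p under 0.05, 2 with DESeq2). Averaged over genotypes Shmt1, which moves a carbon from serine to folate, rose by 0.60 ± 0.11 (adjusted p = 0.013, lost without library 1 at 0.0656), while Aldh1l1, which oxidises formyl-folate, fell by 0.41 ± 0.08 (adjusted p = 0.0115, lost without library 2 at 0.0511). Sdsl fell by 0.55 ± 0.13 (adjusted p = 0.03, lost without library 1, 4, 5, 6 or 7, up to 0.114) and the mitochondrial folate enzyme Mthfd2 by 0.85 ± 0.22 (adjusted p = 0.0417, lost with DESeq2 and without any library but 4, up to 0.15). These are 1 rise and 3 falls among 21 genes, beside 10.4% of all rows. Between genotypes, 3 were lower in het livers averaged over diets, beside 3.24% of all rows called in either direction. Bhmt, which methylates homocysteine with betaine, read 3600 and 4590 CPM in wild-type chow and 6090 and 5270 in wild-type HFD, against 1470 and 2440 in het chow and 3250 and 2090 in het HFD, a log2 difference of -1.08 ± 0.19 (adjusted p = 0.0261). Gldc, which cleaves glycine, differed by -0.46 ± 0.07 (adjusted p = 0.0219) and Gnmt, which methylates glycine, by -0.32 ± 0.07 (adjusted p = 0.0429). All 3 were lost without library 1, 2, 3 or 6, Bhmt and Gnmt also without 5, and Gnmt without 8 or with upper-quartile scaling, with adjusted p up to 0.113 for Bhmt, 0.107 for Gldc and 0.18 for Gnmt. The count of 3 was 6 with DESeq2 or with no filter, 5 with RLE scaling or without library 7, 1 without library 5, and 0 without library 1, 2, 3 or 6. Of the 21, 4 had a log2 value above 0 between genotypes averaged over diets, with a median of -0.22, beside 6602 of all 12593 rows and a median of 0.01. In the other lists, 1 of 11 asparagine, aspartate and glutamine enzymes (median -0.14) and 8 of 24 other ATF4 targets (-0.09) were above 0. So were 9 of 20 synthetases (-0.03), 3 of 7 genes of the eIF2 alpha list (-0.01) and 11 of 16 ER chaperone genes (0.05).

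Of 11 enzymes of asparagine, aspartate and glutamine, 1 fell on HFD in wild-type livers and 0 passed in het livers with edgeR or DESeq2 (4 at an unadjusted p under 0.05). The gene that fell was Gls2, the liver glutaminase, at 361 and 426 CPM on chow and 231 and 280 on HFD, a fall of 0.62 ± 0.14 (edgeR adjusted p = 0.0415, lost without library 1, 2, 5 or 6, up to 0.232). Averaged over genotypes Gls2 fell by 0.52 ± 0.10 (adjusted p = 0.0129, lost without library 2 at 0.0556). The 2 most abundant, Glud1 and Glul, read 781 to 1180 and 818 to 1050 CPM and passed in no comparison.

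The ER chaperone list stands for the other branches of the unfolded protein response, those run by ATF6 and by IRE1 with XBP1. Of its 16 genes 0 passed in either genotype alone with edgeR. At an unadjusted p under 0.05 there were 9 in wild-type and 3 in het livers, and DESeq2 called 4 and 1. On HFD 14 had values above 0 in wild-type and 15 in het livers, with medians of 0.35 and 0.17, beside 6787 and 6150 of all 12593 rows and medians of 0.02 and -0.01. Averaged over genotypes 5 rose, beside 700 of the 12593 rows: Hspa5 by 0.60 ± 0.15 (edgeR adjusted p = 0.0388), Edem1, Creld2, Herpud1 and Manf. DESeq2 called 6 averaged over genotypes. With edgeR none of the 5 calls held when library 1, 2, 5, 6 or 7 was left out. Fewer genes were called without library 8 and more without library 3. Hspa5, the main ER chaperone, read 642 and 561 CPM on chow and 1010 and 939 on HFD in wild-type livers, and 873 and 505 on chow and 1010 and 933 on HFD in het livers, so that het chow library 3 was nearer to the HFD libraries than to the other chow libraries.

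**Figure D4:**
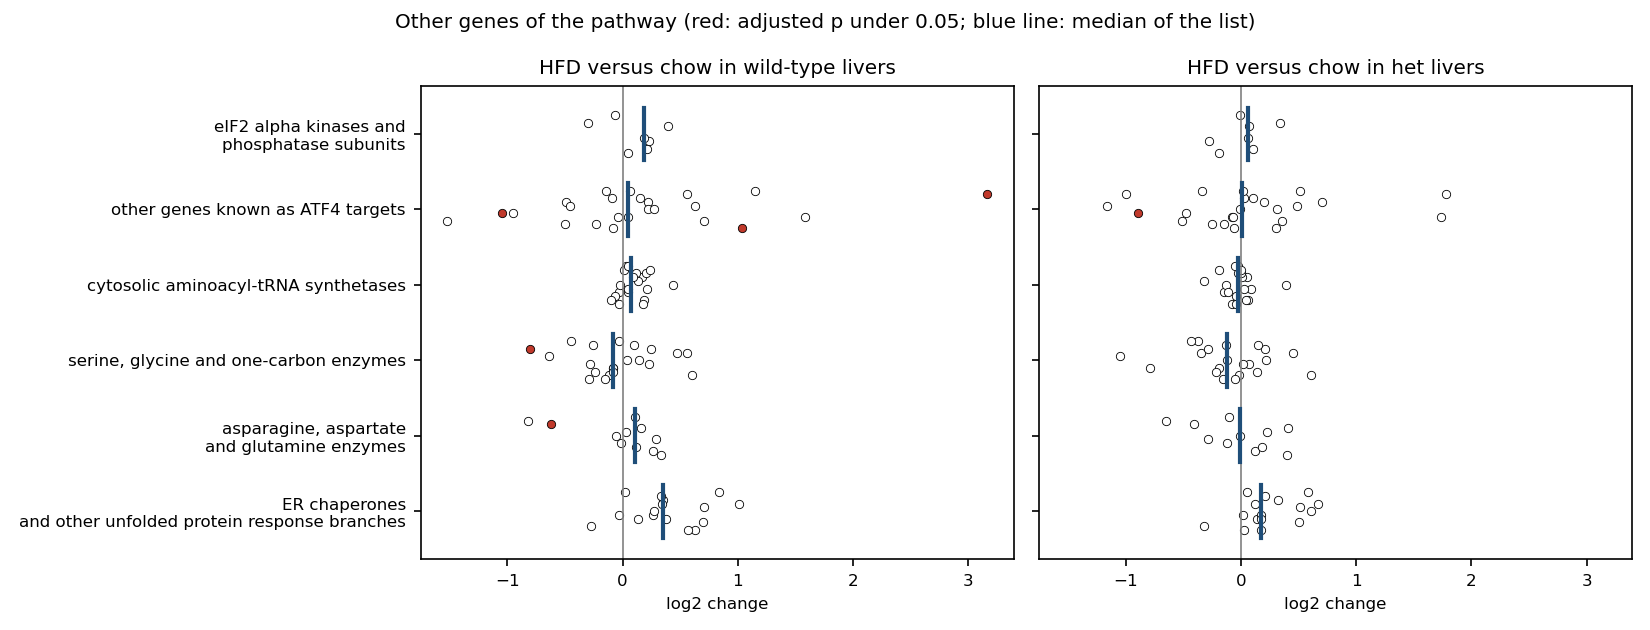
Log2 change on HFD for the tested genes of the 6 lists, wild-type livers left and het livers right; each point is a gene, red points passed an edgeR adjusted p of 0.05, and blue lines are list medians. The list medians run from -0.08 to 0.35 in wild-type and from -0.12 to 0.17 in het livers, with the ER chaperones highest in each. The red points are Fgf21 (3.16), Slc1a4, Cth, Sdsl and Gls2 in wild-type livers and Cth in het livers. Fgf21 passed the filter on low counts only through its HFD libraries.

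Markers of cell types moved with some of the groups compared. Hepatocyte markers (5 of 5 found) summed to 73100 to 79000 CPM in the chow libraries and 62500 to 65000 in the HFD libraries, groups that do not overlap. Most of the sum is Alb, at 45600 to 62000 CPM. On HFD in wild-type and het livers the log2 values were -0.23 and -0.33 for Alb, -0.65 and -0.20 for Cps1, -0.48 and -0.40 for Fgb, 0.06 and -0.04 for Ttr, and -0.22 and 0.49 for Apoa1. Of these Cps1 (edgeR adjusted p = 0.0188) and Fgb (0.0446) passed, in wild-type livers. Red blood cell markers summed to 258 and 320 CPM in wild-type chow and 654 and 828 in wild-type HFD, with 240 to 253 in het chow and 350 to 371 in het HFD. Within that list only Alas2, the first enzyme of haem synthesis in red cells, divided by genotype as Trib3 did, at 119 to 142 CPM in the 4 wild-type and 61.2 to 72.1 in the 4 het libraries (-0.96 ± 0.07 averaged over diets, edgeR adjusted p = 0.000827). The globin rows of the list, each joined with another globin gene, overlapped between genotypes on chow. Hba-a1 read 145 and 99.2 CPM in wild-type chow against 116 and 134 in het chow. On HFD it read 483 and 359 in wild-type against 203 and 223 in het livers. Hbb-b1 read 56.5 and 39 CPM in wild-type chow against 51.7 and 54.7 in het chow. On HFD it read 205 and 153 in wild-type against 76.9 and 86.2 in het livers. Kupffer cell markers (6) summed to 108 to 119 CPM in the 4 wild-type libraries, 267 and 346 in het chow, and 114 and 185 in het HFD. Among them, Clec4f differed by 1.20 (edgeR adjusted p = 0.0407) and Cd5l by 1.76 (adjusted p = 0.0356) between genotypes on chow. The part of these shifts in the values of Asns, Atf5, Ddit3 and Trib3 was not tested. Sums for endothelium (93.7 to 142 CPM), stellate cells (65.9 to 102) and cholangiocytes (27.3 to 45.4) were low beside hepatocytes, lymphocyte and neutrophil sums did not pass 2.55 CPM, and adipocyte markers did not pass 0.284 CPM.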

How the data were processed

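The authors deposited 1 table of raw counts per gene for 8 liver libraries. Per the submitters' processing notes the tools were CASAVA, TopHat2, HTSeq and DESeq on build mm9; versions, settings, annotation and strand handling are not given in the sources used here. Several symbols are joined in each of 374 rows, none of which holds any of the 10 genes; without strand, reads from overlapping antisense genes cannot be told apart.

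Counts were tested with edgeR 4.0.16 (R 4.3.3, limma 3.58.1): filterByExpr (12593 rows kept), TMM scaling, 1 mean per group over all 8 libraries, quasi-likelihood tests, 2-sided, Benjamini-Hochberg adjustment over all rows tested, called at an adjusted p under 0.05. The fit left 4 residual degrees of freedom. Library numbers are unique, so nothing pairs libraries. Log2 CPM for correlations used a prior count of 2. The steps were tested on simulated data. Alternatives were DESeq2 1.42.0, RLE and upper-quartile scaling, other filters, leaving out the joined row of major urinary protein genes (7.42 to 13.6% of counts), fitting only the groups compared, and leaving out each library.

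The 10 genes, the lists and the markers were chosen with earlier results of these data known. All 10 genes are named. From each list the text names up to 4 called genes of smallest adjusted p per comparison, otherwise up to 2 of highest mean CPM. The 5 genes most like Asns had the highest Pearson r of log2 CPM. Promoters are RefSeq's on GRCm38.p6 and exon lengths GENCODE M21's, another build than that of the counts; both were matched by symbol.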

Additional observations from a re-analysis of the deposited data

How the results depend on the processing

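No called value of the 10 genes or of the listed genes changed direction under any alternative. Of 42 values of the 10 genes with an unadjusted p of at least 0.05, 22 changed sign under at least 1 of 15 alternatives, and 1, Sesn2 between genotypes averaged over diets, was called under one of them. Fitted on the compared groups alone, 1351 rows were called on HFD in wild-type livers in place of 578, 105 in het livers in place of 380 and 26 between genotypes on HFD in place of 56. With no filter on low counts the calls were 680 on HFD in het livers, 314 between genotypes on chow (65 with the filter), 258 between genotypes on HFD, 8 for the difference in diet effect (0) and 760 between genotypes averaged over diets (408). DESeq2 called 227 between genotypes on chow, 241 on HFD and 29 for the difference in diet effect. Leaving out 1 library gave 98 to 896 calls on HFD in wild-type livers, 144 to 293 in het livers, 1 to 268 between genotypes on chow, 12 to 177 on HFD, 0 to 14 for the difference, 546 to 1388 on HFD averaged over genotypes (1309) and 23 to 722 between genotypes averaged over diets. Of the 9 genes tested, fitting the het groups alone called 0 on HFD in place of 3. Between genotypes on chow 2 were called in place of 1 with DESeq2, with upper-quartile scaling and with no filter; on HFD 1 in place of 0 with DESeq2 and with no filter; averaged over diets 2 in place of 1 with no filter. Leaving out 1 library called 1 to 2 in wild-type livers, 0 to 2 in het livers, 0 to 2 between genotypes on chow, 0 to 1 on HFD, 2 to 3 on HFD averaged over genotypes and 0 to 2 between genotypes averaged over diets. The cause was not tested, apart from the libraries or rows that an alternative leaves out or adds by construction. No paired analysis was possible because the groups share no library number. With 2 libraries a group, and 7 to 10 Asns counts per HFD library, the interval of Asns between genotypes on HFD (-1.06 to 0.94) limits what can be told there.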
